A study of Mus musculus with 13 samples.

Results

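Triglyceride synthesis and glycerol supply in gluteal white adipose tissue (WAT) were followed through 10 genes chosen for their roles in the pathway, *Pck1*, *Gpd1*, *Gpam*, *Gpat3*, *Gpat4*, *Agpat2*, *Agpat3*, *Lpin1*, *Dgat1* and *Dgat2*. The choice of these genes, and of the other gene lists below, was made with earlier results of these data known. Each of the 10 was taken from the counts table by its symbol, and all 10 were found among 34419 genes. RNA was sequenced from the gluteal depot, a subcutaneous fat pad of the posterior body, of 7 male C57BL/6J mice housed at 22°C and 6 housed at 29°C, with 1 library per mouse. No transgene, deletion or drug is given for either group, and all mice were bred and kept at their temperature until 13 weeks of age, lost their posterior hair after weaning, and lived 1 to a cage, on sparse litter without anything to build a nest from. At 29°C a mouse is near thermoneutrality, and the comparison asks how long residence at a cool temperature alters the tissue. Because hair was removed in both groups, these mice give the effect of housing temperature without posterior hair and hold no group with intact hair.

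White adipocytes store fatty acids as triglyceride, in which a glycerol backbone carries fatty acyl chains. Fat cells cannot reuse much of the glycerol that lipolysis releases, so the backbone comes as glycerol 3-phosphate from glucose or, by glyceroneogenesis, from pyruvate. Acyltransferases of the endoplasmic reticulum and mitochondria then add acyl chains in turn, lipins remove the phosphate to give diacylglycerol, and diacylglycerol acyltransferases (DGAT) add the last chain.

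Markers of the labelled tissue were present. All 9 mature adipocyte markers were detected in both groups, with 1.88% to 3.28% of counts at 22°C and 2.82% to 3.37% at 29°C. For skeletal muscle markers the share ran from 0.106% to 9.03% at 22°C and from 0.0172% to 0.851% at 29°C, and all 24 had fold changes above 0 at 22°C. Of 8 tested markers of brown and beige adipocytes, 7 had fold changes above 0 and edgeR called 3 higher at 22°C. These included *Cidea* (log2 fold change 2.51, P-adj = 0.0199) and *Cox8b* (2.27, P-adj = 0.0827), whose groups did not overlap. The summed level of the list was 64.9 to 338 CPM at 22°C and 39.4 to 63.6 CPM at 29°C. Its share of counts was highest in 22°C replicates 1 and 7, at 0.0287% and 0.0246%, against 0.00674% to 0.012% in the other 22°C mice. Replicates 1 and 7 were also richest in skeletal muscle markers, at 6.67% and 9.03% of counts. The part of muscle RNA in the brown and beige list was not tested. *Ucp1*, the defining gene of brown fat, was at 0 in each mouse at 29°C and at most 0.369 CPM at 22°C. In tissue RNA, fewer cells of a type and less RNA per cell cannot be told apart. Library totals ran from 22356637 to 25245785 counts and fell into a lower cluster, which holds 22°C replicates 1 to 5 only, and a higher cluster made up of the other two 22°C libraries (replicates 6 and 7) and the whole 29°C group. The members themselves were counted deeply, from 2306 counts for *Gpat3* to 62677 for *Dgat2* in a library, so the spread between mice and not counting limited each comparison.

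None of the 10 genes passed the test between temperatures, although each was counted deeply. With edgeR's quasi-likelihood test and Benjamini-Hochberg adjustment, 0 of 10 were called at P-adj below 0.1, beside 1.94% of all 17779 genes tested (0.731% higher and 1.21% lower at 22°C), and 0 had an unadjusted p below 0.05, beside 18.5% of all genes. DESeq2 called 0 of 10 beside 10.2% of the 16388 genes it adjusted, and limma on the authors' log2 values 0 of 10 beside 2% of 17779 genes. Neither gave any member an unadjusted p below 0.05, which DESeq2 gave to 11.4% of 34358 genes, a set with no filter on low counts. CPM overlapped between temperatures for each member, while 1.24% of all genes did not overlap. Of the fold changes at 22°C relative to 29°C, 6 were above 0 and 4 below on the log2 scale, with a median of 0.06 against 0.01 over all genes tested. The 95% interval lay between -1 and 1 on the log2 scale for all 10 genes, from a lowest bound of -0.82 for *Gpam* to a highest of 0.97 for *Agpat2*. These intervals leave room for changes below 2-fold in either direction. Of the mice at 29°C, replicate 6 was highest and replicate 4 lowest for *Gpat3*, *Agpat2*, *Agpat3*, *Dgat1*, *Dgat2* and *Gpd1*. Without replicate 6 their log2 fold changes were 0.20, 0.64, 0.22, 0.43, -0.21 and 0.33. Without replicate 4 they were -0.05, 0.18, 0.13, 0.23, -0.46 and -0.09, and none was called in either fit.

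**Figure D1:**
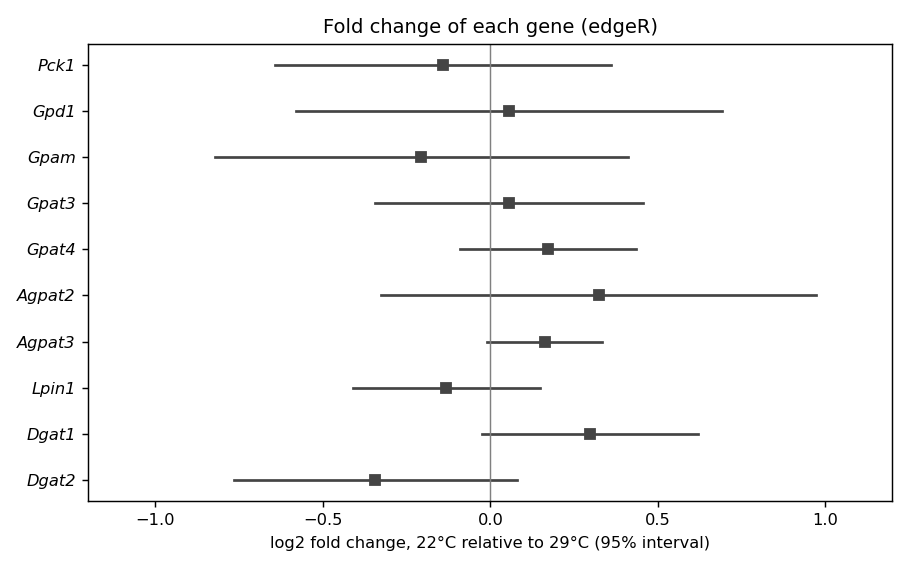
Squares give the log2 fold change of each gene at 22°C relative to 29°C from edgeR and lines its 95% interval, with 7 and 6 mice. Every interval includes 0, and the narrowest belongs to *Agpat3* (-0.01 to 0.33).

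Levels of different genes were set side by side as CPM per kilobase of merged exon. At 22°C the order by mean was *Dgat2* (467 ± 88.9, SD, n = 7), *Pck1* (432 ± 128), *Gpd1* (414 ± 146), *Agpat2* (258 ± 75.4), *Dgat1* (88.4 ± 16.7), *Gpam* (64.4 ± 31.9), *Lpin1* (49.9 ± 7.59), *Gpat3* (40.3 ± 7.63), *Agpat3* (33.4 ± 2.93) and *Gpat4* (31.3 ± 5.44). At 29°C the order differed in that *Gpam* (74.3 ± 19.5, SD, n = 6) came before *Dgat1* (72.0 ± 16.1), a difference smaller than either SD. The first 3 levels at 22°C lay within an SD of each other, as did those of *Agpat3* and *Gpat4*, whereas *Agpat2* was above *Dgat1* by more than either SD at both temperatures. *Dgat2* of the last step and both genes of glycerol 3-phosphate supply had the highest levels per length, and *Gpat3* and *Gpat4* of the first acylation were among the lowest. Merged exons span all annotated transcripts of a gene, so the order between these depends on the lengths used. By mean CPM at 22°C, for example, *Lpin1* (482) stood above *Dgat1* (270). Isozyme shares by length, given below, rest on the same lengths.

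**Figure D2:**
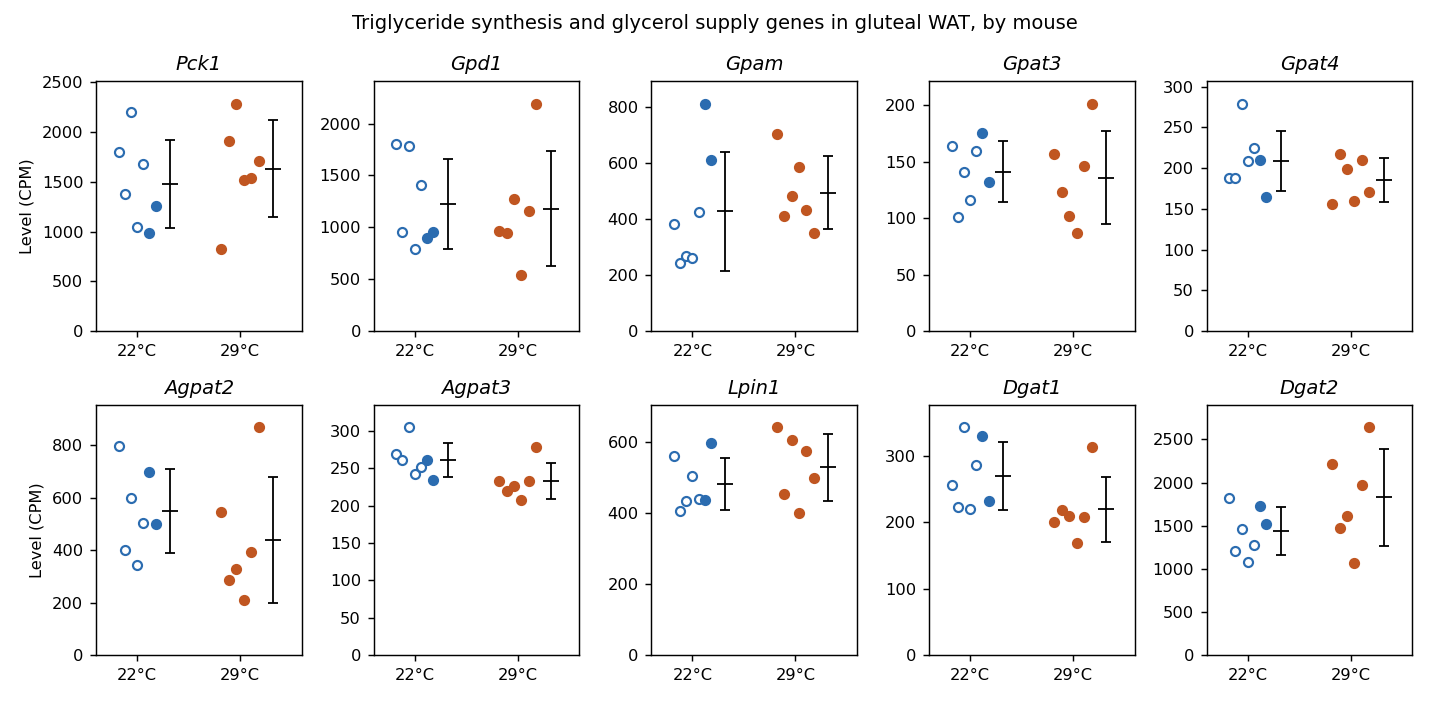
Each panel gives the level of 1 gene in CPM, with 1 point per mouse and the mean ± SD beside it. Open points are the 5 libraries with lower totals, all at 22°C, and groups overlap in every panel, as for *Dgat1* with 220 to 343 at 22°C and 169 to 314 at 29°C.

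Promoter sequences are shown for the member that opens glyceroneogenesis and for a pair that rose and fell together from mouse to mouse . RefSeq promoter entries of build GRCm38.p6 matched 6 of the 10 members, and *Gpat4*, *Dgat1*, *Dgat2* and *Gpd1* are named only. The 250 bases before the transcription start follow, 5′ to 3′ on the strand of the gene, from chr2:173152823-173153072 (plus strand) for *Pck1*, chr2:26604418-26604667 (minus strand) for *Agpat2* and chr5:100845979-100846228 (plus strand) for *Gpat3*. Capitals mark TTACGTCA, the letters of a cAMP response element, and GGGCGG, the core of a GC box. Both were searched on both strands, and overlapping copies of GGGCGG were counted each.
Pck1: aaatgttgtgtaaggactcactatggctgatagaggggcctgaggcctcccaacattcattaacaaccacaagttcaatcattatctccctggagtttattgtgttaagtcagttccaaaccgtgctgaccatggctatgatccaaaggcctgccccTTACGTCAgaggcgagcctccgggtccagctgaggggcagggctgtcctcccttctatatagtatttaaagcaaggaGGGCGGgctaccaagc
Agpat2: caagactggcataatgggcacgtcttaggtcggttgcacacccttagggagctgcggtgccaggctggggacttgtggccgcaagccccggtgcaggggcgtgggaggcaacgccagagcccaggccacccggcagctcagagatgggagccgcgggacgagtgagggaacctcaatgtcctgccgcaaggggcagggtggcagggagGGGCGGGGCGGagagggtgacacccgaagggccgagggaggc
Gpat3: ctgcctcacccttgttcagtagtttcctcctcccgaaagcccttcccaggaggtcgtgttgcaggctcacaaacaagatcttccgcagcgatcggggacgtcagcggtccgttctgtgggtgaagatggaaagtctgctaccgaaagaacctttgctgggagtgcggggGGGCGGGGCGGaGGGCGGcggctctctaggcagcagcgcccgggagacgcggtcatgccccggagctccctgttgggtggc
TTACGTCA stood between 93 and 86 bases before the start in *Pck1* and in no other matched member, and 0.447% of 32851 promoter windows hold it. GGGCGG stood in the windows of *Agpat2*, *Gpat3*, *Pck1* and *Gpam*, and 32.7% of all windows hold it. Motifs came from a set list of 6, written before the search. Of the others on it, TGACGTCA, CACGTG and TATAAA stood in no matched member, and 1.55%, 6.02% and 12.4% of all windows hold them. CCAAT stood in a window of *Gpam*, and 33.8% of all windows hold it. Each match is a description of letters in a window and no test of the members.

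Supply of glycerol 3-phosphate begins with *Pck1*, which encodes cytosolic phosphoenolpyruvate carboxykinase, the committed enzyme of glyceroneogenesis. *Pck1* had a lowest, median and highest level of 987, 1377 and 2207 CPM at 22°C and of 827, 1623 and 2286 CPM at 29°C. The groups covered almost the same range. Its log2 fold change was -0.14 (SE 0.23, 95% interval -0.64 to 0.36, edgeR P-adj = 0.788). With the cluster of totals as a covariate it was -0.54 (edgeR P-adj = 0.54). In the higher cluster alone, which holds 2 mice at 22°C, it was -0.55 (edgeR P-adj = 0.55). By length, *Pck1* made up 99.3% ± 0.28 (SD, n = 7) of cytosolic and mitochondrial carboxykinase RNA at 22°C and 99.3% ± 0.22 (n = 6) at 29°C, the rest being *Pck2*. *Gpd1*, the cytosolic glycerol 3-phosphate dehydrogenase that makes glycerol 3-phosphate from a glycolytic intermediate, had levels of 787, 953 and 1801 CPM at 22°C and 544, 1063 and 2190 CPM at 29°C. The mice at 22°C lay inside the range of those at 29°C, whose highest value came from replicate 6 and lowest from replicate 4. The log2 fold change of *Gpd1* was 0.06 (SE 0.30, interval -0.58 to 0.69, edgeR P-adj = 0.942). *Gpd1* overlaps the antisense gene *Gm16537*, whose level followed it across mice with r = 0.994, and without a stated strand setting their reads cannot be told apart.

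The first acyl chain is added by glycerol 3-phosphate acyltransferases (GPAT), with *Gpam* encoding the mitochondrial enzyme and *Gpat3* and *Gpat4* those of the endoplasmic reticulum. *Gpam* had levels of 242, 383 and 813 CPM at 22°C and 352, 457 and 706 CPM at 29°C. Its groups overlapped, but at 22°C the mice divided by library total. Levels were 242 to 425 CPM in the 5 libraries with lower totals, and 813 and 612 CPM in replicates 6 and 7, which have higher totals. Over all mice the log2 fold change of *Gpam* was -0.21 (SE 0.29, interval -0.82 to 0.41, edgeR P-adj = 0.745), whereas it was 0.53 (P-adj = 0.429) with the cluster of totals as a covariate, a fit that called 0.0225% of all genes, and 0.52 (P-adj = 0.435) among libraries of the higher cluster alone. It stayed below 0 when any single mouse was left out (-0.44 to -0.08). The values above 0 rest on 2 mice at 22°C, and since the lower cluster holds 1 temperature only, no value exists within it. What the totals stand for was not tested.

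*Gpat3* had levels of 102, 141 and 175 CPM at 22°C and 86.7, 135 and 201 CPM at 29°C. The 22°C mice lay inside the range of the 29°C mice, and the log2 fold change was 0.06 (SE 0.19, interval -0.34 to 0.46, edgeR P-adj = 0.903). *Gpat4* had levels of 165, 208 and 279 CPM at 22°C and 156, 185 and 217 CPM at 29°C. A single mouse at 22°C stood above the others, and the log2 fold change was 0.17 (SE 0.12, interval -0.09 to 0.43, edgeR P-adj = 0.477). By length, *Gpam* supplied 45.3% ± 10.5 (SD, n = 7) of the RNA of this step at 22°C and 52.3% ± 9.58 (n = 6) at 29°C, *Gpat3* 30.3% ± 4.17 and 27.6% ± 8.33, and *Gpat4* the rest but for a trace of *Gpat2*. The share of *Gpam* was 33.0% to 44.6% in the 22°C libraries with lower totals and 59.9% and 59.5% in replicates 6 and 7, above the 29°C mean. *Gpat2* took at most 0.111% of this RNA in any mouse.

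The second chain is added by 1-acylglycerol 3-phosphate acyltransferases (AGPAT), of which *Agpat2* is the main form in fat and is lost in a congenital lipodystrophy. *Agpat2* had levels of 343, 504 and 797 CPM at 22°C and 210.0, 361 and 868 CPM at 29°C. Mice at 29°C spread 4.13-fold from lowest to highest and enclosed the 22°C mice, which spread 2.33-fold. Its log2 fold change was 0.32 (SE 0.30, interval -0.33 to 0.97, edgeR P-adj = 0.609). *Agpat3*, an acyltransferase that also acts on phospholipids, was the steadiest member, with levels of 234, 261 and 305 CPM at 22°C and 208, 229 and 278 CPM at 29°C. Among mice at 29°C only replicate 6, at 278 CPM, lay above the lowest mouse at 22°C, so the ranges overlapped through that mouse. The log2 fold change of 0.16 (SE 0.08, interval -0.01 to 0.33) did not pass (edgeR P-adj = 0.302). By length, *Agpat2* made up 76.7% ± 4.44 (SD, n = 7) of the RNA of the 5 AGPAT isozymes at 22°C and 72.0% ± 8.28 (n = 6) at 29°C. Both members overlap genes on the opposite strand, *Egfl7* among them for *Agpat2*, which leaves their counts uncertain to that extent. The same holds for *Gpam*, which overlaps the antisense *AC110206.1*, and for *Gpat3*, which overlaps the antisense *4930458D05Rik* and, on its own strand, *Gm42987*, whose level followed it with r = 0.94.

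Lipin 1, encoded by *Lpin1*, is the phosphatidate phosphatase that yields diacylglycerol and also acts as a transcriptional coregulator. *Lpin1* had levels of 405, 439 and 598 CPM at 22°C and 400, 536 and 641 CPM at 29°C. The ranges were alike, and the log2 fold change was -0.13 (SE 0.13, interval -0.41 to 0.15, edgeR P-adj = 0.629). It made up 92.6% of lipin RNA by length at both temperatures (± 0.98 at 22°C, n = 7, and ± 2.37 at 29°C, n = 6, SD).

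At the last step the fold changes of the isozymes had opposite signs, and neither passed. *Dgat1*, whose enzyme also re-esterifies fatty acids released by lipolysis, had levels of 220, 256 and 343 CPM at 22°C and 169, 209 and 314 CPM at 29°C. All of the mice at 29°C but replicate 6 lay below the lowest mouse at 22°C. The log2 fold change was 0.30 (SE 0.15, interval -0.03 to 0.62, edgeR P-adj = 0.312). *Dgat2*, which encodes the form that works mainly on newly made fatty acids, had levels of 1074, 1462 and 1817 CPM at 22°C and 1062, 1787 and 2639 CPM at 29°C. The mice at 22°C lay inside the wider range of those at 29°C, and the log2 fold change was -0.34 (SE 0.20, interval -0.77 to 0.08, edgeR P-adj = 0.369).

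The share of *Dgat1* within this step was higher on average at 22°C, although the groups overlapped. *Dgat1* was 16.1% ± 2.48 (SD, n = 7) of DGAT RNA by length at 22°C, with a range of 12.5% to 19.2%, and 11.2% ± 2.03 (n = 6) at 29°C, with a range of 8.40% to 13.8%. Overlap came from 22°C replicates 1 and 7, at 12.5% and 13.4%, and from 29°C replicates 2 and 4, at 13.0% and 13.8%. Those 2 libraries at 22°C were also the ones richest in skeletal muscle markers, at 6.67% and 9.03% of counts. The part of muscle RNA in these shares was not tested. In the higher cluster of totals the 22°C mice were at 16.2% and 13.4%, the latter inside the 29°C range. Since the ratio was formed with the values known, it is given as a description with no test.

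**Figure D3:**
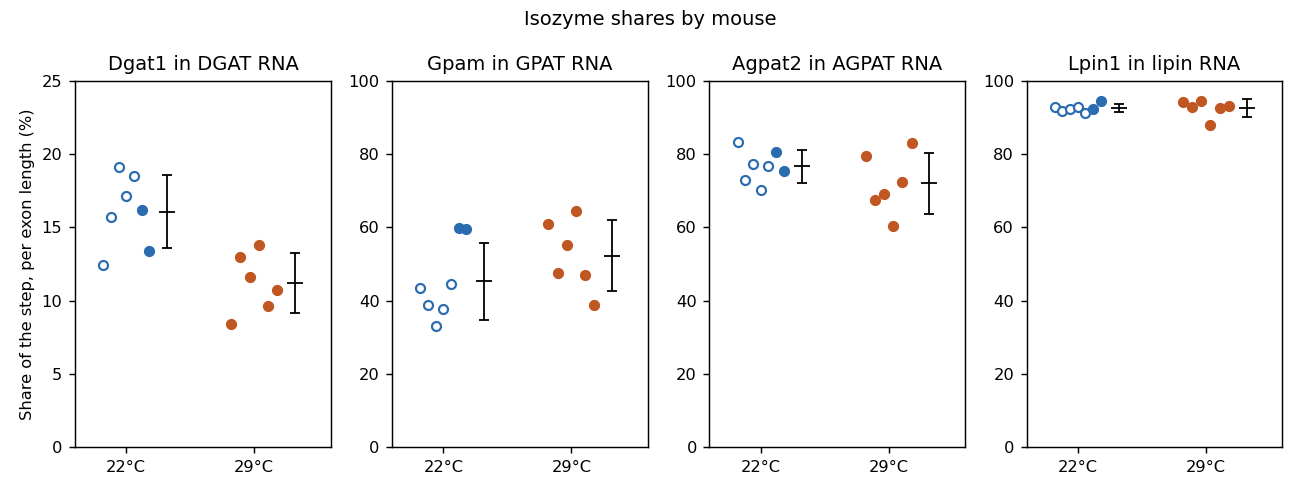
Points give, for each mouse, the share of a step's RNA per exon length (%) that comes from *Dgat1*, *Gpam*, *Agpat2* or *Lpin1*, with the mean ± SD beside them, and open points are libraries with lower totals. *Dgat1* took 12.5% to 19.2% at 22°C and 8.40% to 13.8% at 29°C, on an axis that ends at 25%, whereas the other axes end at 100%.

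Of 20 relations between a member and the adipocyte or muscle score, 4 had an adjusted p below 0.05, and 2 of these were of *Dgat1*. Its deviation from the group mean of log2 CPM followed the mean log2 CPM of the 9 mature adipocyte markers over 13 mice (Pearson r = 0.819, permutation p = 0.00066, adjusted 0.011; Spearman rho = 0.901, permutation p = 0.00022, adjusted 0.0048), and r was 0.776 without the 2 farthest mice and 0.843 in the 8 mice of the higher cluster. It ran against the skeletal muscle score (r = -0.749, permutation p = 0.0072, adjusted 0.039; rho = -0.731, permutation p = 0.0097, adjusted 0.07), with r = -0.558 without the 2 farthest mice. When the adipocyte score entered the edgeR model as a covariate, the log2 fold change of *Dgat1* was 0.42 (SE 0.10) with P-adj = 0.0867. That was the only call for a member under any setting tried, in a fit that called 1.66% of all genes. With the muscle score as covariate it was 0.52 (P-adj = 0.144) in a fit that called 0.231% of all genes, and without libraries over 1% muscle counts 0.42 (P-adj = 0.346). *Gpat4* also followed the adipocyte score (r = 0.75, permutation p = 0.0047, adjusted 0.035; rho = 0.72, permutation p = 0.0078, adjusted 0.07), though r fell to 0.523 without the 2 farthest mice. The fourth relation was that of *Agpat3* with the adipocyte score (r = 0.688, permutation p = 0.0078, adjusted 0.039; rho = 0.588, permutation p = 0.045, adjusted 0.15), with r = 0.487 without the 2 farthest mice. Here and below, the 2 farthest mice are those whose deviation of the first-named gene lay farthest from its median. They can differ between relations.

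Several members varied together around the mean of their temperature group, with mice of both temperatures pooled. Correlations were taken over deviations of log2 CPM from each group's mean in 13 mice, by permutation within groups, with adjustment over 65 relations. Of 45 member pairs, 9 had an adjusted p below 0.05 for Pearson's r, all of them positive. Fewer passed for Spearman's rho, namely the pairs among *Gpat3*, *Agpat2* and *Dgat2*, and *Agpat2* with *Agpat3*. That last pair had r = 0.761 (permutation p = 0.0046, adjusted 0.035) and rho = 0.824 (permutation p = 0.0016, adjusted 0.021), with r = 0.503 without the 2 farthest mice. The matching share over pairs of all genes tested was not computed, so whether the count of 9 is particular to the members is not known. The closest was *Agpat2* with *Dgat2* (r = 0.963, rho = 0.962, permutation p = 2e-05 and adjusted 0.0013 for both), and r was 0.95 without the 2 farthest mice and 0.964 in the higher cluster. *Gpat3* followed *Agpat2* (r = 0.909, rho = 0.912, permutation p = 0.00022 for both, adjusted 0.0071 and 0.0048) and *Dgat2* (r = 0.886, permutation p = 0.00052, adjusted 0.011; rho = 0.863, permutation p = 0.00094, adjusted 0.015). Without the 2 farthest mice these were 0.812 and 0.767, and in the higher cluster 0.943 and 0.94. An acyltransferase of each of 3 steps thus rose and fell with the others from mouse to mouse, whereas none of the 3 passed the test between temperatures. Of the mice at 29°C, replicate 6 was highest and replicate 4 lowest for all 3. Without any single mouse r was 0.958 to 0.974 for *Agpat2* with *Dgat2*. It was 0.864 to 0.931 for *Gpat3* with *Agpat2* and 0.836 to 0.933 for *Gpat3* with *Dgat2*. No correlation was computed within the 5 mice of the lower cluster.

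**Figure D4:**
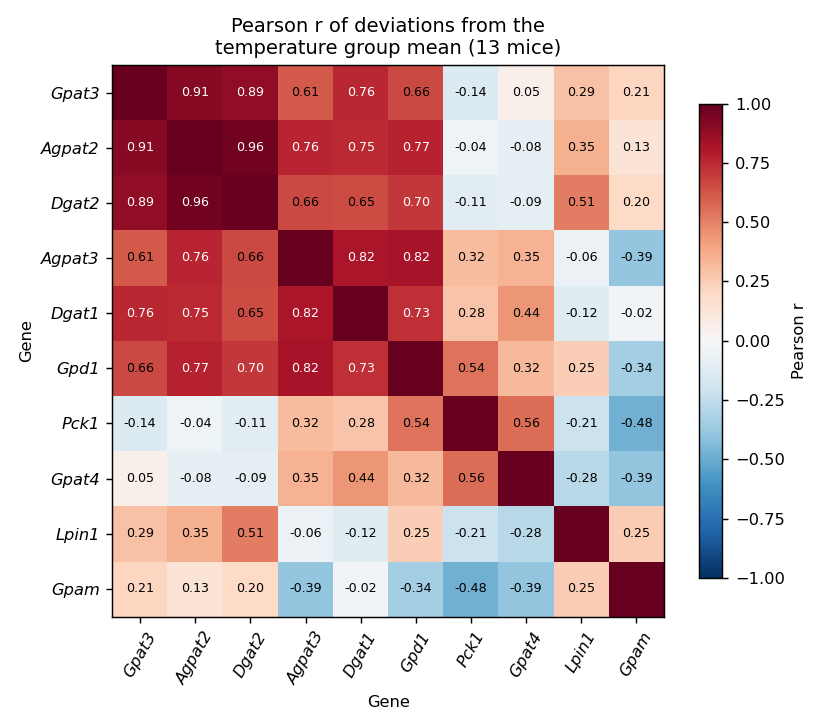
Each cell gives Pearson's r between the deviations of 2 genes from their temperature group's mean log2 CPM, over 13 mice. *Gpat3*, *Agpat2* and *Dgat2* form a block at 0.886 to 0.963, while *Gpam* and *Pck1* stand at -0.483.

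The next closest pairs depended more on which mice were included. *Agpat3* followed *Gpd1* (r = 0.825, permutation p = 0.002, adjusted 0.027; rho = 0.698, permutation p = 0.015, adjusted 0.095) and *Dgat1* (r = 0.817, permutation p = 0.0033, adjusted 0.035; rho = 0.577, permutation p = 0.053, adjusted 0.16). Without the 2 farthest mice r was 0.673 and 0.495, and in the higher cluster 0.858 and 0.939. *Gpam* and *Pck1* gave r = -0.483 (permutation p = 0.096, adjusted 0.25; rho = -0.352, permutation p = 0.28, adjusted 0.5), which did not pass, and r was -0.322 without the 2 farthest, -0.716 in the higher cluster and -0.656 without libraries over 1% muscle counts. The ratio of *Gpam* to *Pck1* CPM was 0.122 to 0.254 in the 5 mice at 22°C with lower totals, 0.824 and 0.486 in replicates 6 and 7, and 0.206 to 0.854 at 29°C.

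**Figure D5:**
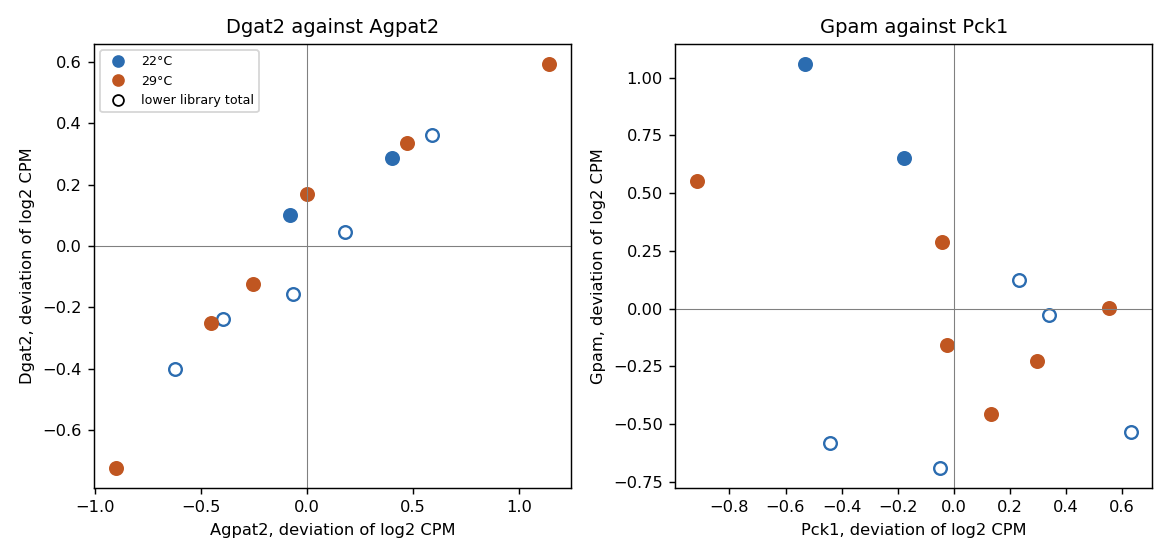
Axes give deviations of log2 CPM from the temperature group's mean, for *Dgat2* against *Agpat2* (r = 0.963) and *Gpam* against *Pck1* (r = -0.483), with 1 point per mouse and open points for libraries with lower totals. Mice of both temperatures lie along 1 line in the first panel and scatter in the second.

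How far a gene varied within a temperature differed among members. The SD of log2 CPM within groups was 0.58 for *Agpat2*, 0.57 for *Gpd1*, 0.55 for *Gpam* and 0.46 for *Pck1*, and 0.13 for *Agpat3*, against a median of 0.24 over all genes tested. Their median was 0.37. The genes whose deviations were most like those of a member, out of all genes tested, were *Atp5g3* and *Echdc1* for *Agpat2* (r = 0.973 and 0.967), *Cox4i1* for *Dgat2* (r = 0.964), *Emc6* for *Gpat3* (r = 0.955), and *Arhgef28* for *Pck1* (r = 0.942). *Atp5g3* and *Cox4i1* encode subunits of the ATP synthase and cytochrome c oxidase. *Agpat2* was itself the second closest gene to *Dgat2*. These are the highest of many correlations and carry no test.

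Other genes of the pathway gave 1 call. Of 58 listed genes 56 were tested, 35 with a value above 0 and 21 below, and 1 was called higher at 22°C, where 0.731% of all genes were called higher. That gene was *Pgp*, which encodes a phosphatase able to act on glycerol 3-phosphate, with levels of 44.4, 49.4 and 66.0 CPM at 22°C and 32.7, 39.8 and 44.2 CPM at 29°C. The groups did not overlap, and the log2 fold change was 0.45 (SE 0.11, edgeR P-adj = 0.0896). The call was lost without libraries over 1% muscle counts (0.29, P-adj = 0.237), with the muscle score as covariate (0.32, P-adj = 0.304), and when any of 22°C replicates 1, 3, 4 and 7 or any single mouse at 29°C was left out (0.39 to 0.49). Among the 13 tested genes of glycerol and glycerol 3-phosphate handling, 11 were above 0, with a median of 0.45, and 6 had an unadjusted p below 0.05, where 18.5% of all genes do. These counts were not repeated with the muscle score or without libraries over 1% muscle counts. The part of muscle RNA in them was not tested. *Aldoa*, a glycolytic enzyme abundant in muscle, had levels of 1259, 1761 and 7668 CPM at 22°C and 1001, 1345 and 1800 CPM at 29°C (log2 fold change 1.28, edgeR P-adj = 0.185). With the muscle score as covariate the value of *Aldoa* was 0.36 (P-adj = 0.817), and without libraries over 1% muscle counts it was 0.18 (P-adj = 0.759). *Pcx*, the pyruvate carboxylase upstream of *Pck1*, had a mean of 1198 ± 324 CPM (SD, n = 7) at 22°C and 1197 ± 591 CPM (n = 6) at 29°C.

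Outside glycerol handling, edgeR called no gene of the other 4 pathway lists. DESeq2 called 6 (*Acsl5*, *Acsl6*, *Cebpb*, *Chkb*, *Esrra* and *Ppargc1a*), in a fit that called 10.2% of the genes it adjusted. For the 14 tested genes of glycerolipid assembly the median log2 fold change was -0.03, with *Plpp3*, a lipid phosphate phosphatase, at -0.17 (edgeR 95% interval -0.46 to 0.12) and *Agpat1* at 0.06 (-0.13 to 0.26). The 5 acyl-CoA synthetases, which activate fatty acids, had a median of 0.08, with the abundant *Acsl1* at 0.15 (-0.28 to 0.59) and *Acsl5* at -0.21 (-0.38 to -0.05, edgeR P-adj = 0.185). In the phospholipid branch, which draws on the same intermediates, the median over 13 genes was 0.04, with *Chpt1* at 0.12 (-0.26 to 0.49) and *Cds2* at 0.01 (-0.20 to 0.21). Over 11 regulators the median was -0.03 and 4 had an unadjusted p below 0.05, with *Cebpa* at 0.07 (-0.20 to 0.35) and *Srebf1* at 0.01 (-0.28 to 0.31). *Cebpb*, named after its values were seen, was at 0.47 (0.20 to 0.73, edgeR P-adj = 0.105), and *Ppargc1a*, named likewise, at 0.87 (0.19 to 1.54, edgeR P-adj = 0.187).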

How the data were processed

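Gluteal WAT libraries came from 7 mice at 22°C and 6 at 29°C, grouped by the temperature in the submitters' labels, which give each mouse as a separate sample. Per the submitters' processing notes, reads were checked with FastQC, aligned with STAR 2.7.5a to GRCm39 and counted with featureCounts, while the paper's text names another build for cultured cells. The authors deposited raw counts of 34419 genes and regularized log2 values from DESeq2. The annotation release and strand setting are not given in the sources used here, so counts of overlapping genes are uncertain. Identifiers were matched without version, which gave symbols for 34006 genes, and merged exon lengths came from GENCODE M21.

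Counts were compared with edgeR 4.0.16 in R 4.3.3 by TMM, filterByExpr, the quasi-likelihood F test and Benjamini-Hochberg adjustment over 17779 genes, called at P-adj below 0.1. CPM use TMM-scaled totals and log2 CPM a prior count of 2. No pair of libraries agreed within sampling noise (lowest chi-square per gene 15.5 over 78 pairs). Correlations used 100000 permutations within groups. A 95% interval is that of the log2 fold change between temperatures in the edgeR fit. It does not give the range of single mice.

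Members and lists were chosen with earlier results of these data known. Named genes were all members, called genes and the 2 most abundant of each pathway list, and the 3 genes most like each member, and not every one of these is printed. The alternatives tried were DESeq2 1.42.0, its size factors, limma 3.58.1, other filters, robust fitting, P-adj below 0.05, the replicate number as a block, covariates for muscle, adipocytes and library totals, subsets of libraries, muscle genes removed, and leaving out each mouse. Leave-one-out and subset values of correlations were added after seeing the data. On simulated counts with a log2 change of 1, edgeR called 135 of 196 changed genes (68.9%) among 17605, with 15 false calls.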

Additional observations from a re-analysis of the deposited data

How the results depend on the processing

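The count of members called was 0 under all alternatives but the adipocyte score as covariate, where it was 1 (*Dgat1*, 0.42), and was 0 without any single mouse. The count over all genes, 345, was 1676 with DESeq2, 42 without a filter, 40 at P-adj below 0.05, 41 with the muscle score, 4 with the cluster of totals, 8 in the higher cluster alone, 43 without libraries over 1% muscle counts, and 32 to 652 without 1 mouse (32 without 29°C replicate 3, 652 without 22°C replicate 6). Pathway genes called, 1, became 8 with DESeq2, which called 10.2% of the genes it adjusted. The count was 0 with the adipocyte, muscle or totals covariate, in the higher cluster and without a filter. It was also 0 without libraries over 1% muscle counts and at P-adj below 0.05, and 0 to 2 without 1 mouse.

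Fold changes (log2) changed sign for some genes under some settings, including *Gpam* from a main value of -0.21 and *Gpd1* from 0.06. With the totals covariate and in the higher cluster alone they were 0.53 and 0.52 for *Gpam*, -0.35 and -0.36 for *Gpd1*, -0.022 and -0.032 for *Pcx*, -0.15 and -0.16 for *Cds2*, and -0.10 and -0.11 for *Cebpa*. *Pck1* was 0.045 with the muscle score. *Pcx* was -0.0026 with DESeq2, -0.0010 with muscle genes removed, -0.0085 without a filter and -0.041 without libraries over 1% muscle counts, and *Srebf1* was -0.0020 with limma. Without 1 mouse the values ran from -0.045 to 0.20 for *Gpat3*, -0.092 to 0.33 for *Gpd1*, -0.13 to 0.30 for *Pcx*, -0.054 to 0.047 for *Cds2*, -0.026 to 0.13 for *Cebpa* and -0.069 to 0.081 for *Srebf1*. The cause was not tested. *Pgp* kept its sign from 0.29 to 0.61.

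With the replicate number as a block, 214 genes, 0 members and 2 pathway genes were called. Same-numbered mice deviated together with r from -0.56 to 0.54 over the 5000 most abundant genes, and 1 of 6 numbers matched best with its own, so the numbers were not taken to pair the mice. With 6 and 7 mice, the spread between animals limits what changes below 2-fold can be seen.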
